A study of Sus scrofa with 12 samples.

Results

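The transcripts described here are those of 8 genes that mark the endothelium, the cell layer that lines blood vessels: PECAM1, VWF, CDH5, KDR, FLT1, TEK, ENG and NOS3. They were taken as every probe set whose single gene symbol in the array's platform annotation was any of these 8, which gave 17 of the 24123 probe sets on the array, for 8 of 6765 genes named by a single symbol. The rule uses gene symbols alone and no measured value, but the genes were chosen with earlier results of these data known. PECAM1, CDH5 and KDR had 2 probe sets each, VWF, FLT1 and TEK had 3 each, and ENG and NOS3 had 1 each. Probe sets of the same gene share an annotation and were not taken as independent, so counts over the 17 probe sets give more weight to genes with several. Which end of the transcript each probe set reads was not checked. All 8 symbols matched a RefSeq pig gene through the gene identifier of the annotation.

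The muscle came from 3 female commercial hybrid pigs of about 160 kg from a single farm, which were stunned with CO2 at 87% and slaughtered in normal practice at a single abattoir; their age was not given in the labels. A portion of 3 to 5 g was cut from the semimembranosus, a thigh muscle, of the left leg of each pig at 20 min after death, and further portions of that muscle followed at 2, 6 and 24 h while the carcass went through the cold chain to 4 °C. The 4 groups are therefore the same 3 animals at 4 times, 12 arrays in all, with no treatment other than time after death and no living or unslaughtered control. The comparison of interest is how the RNA that can still be read from muscle changes over the first 24 h after slaughter.

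Endothelial cells are held together at their borders by VE-cadherin, the product of CDH5, and by PECAM1. They sense growth signals through the VEGF receptors KDR and FLT1 and the angiopoietin receptor TEK, and respond to BMP ligands through the co-receptor endoglin, the product of ENG. They make nitric oxide, which relaxes the vessel wall, with the synthase NOS3, and store von Willebrand factor, the product of VWF, for clotting. In skeletal muscle these cells form a dense capillary bed around the fibres. Some members are shared with blood cells: platelets hold VWF, platelets and leukocytes carry PECAM1, and activated macrophages can carry endoglin.

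Values are log2 expression levels as the authors deposited them, so that a difference of 1 is a doubling. A change is the later level minus the earlier level in the same pig, given as the mean ± SD over the 3 pigs (n = 3). Each change was tested with limma over all 23999 probe sets that are not controls, with the pig as a block, and called at a Benjamini-Hochberg adjusted p under 0.05. The arrays were alike as a whole, with medians between 5.89 and 5.94 and correlations between array pairs of 0.986 to 0.997. Markers of muscle fibres were bright on all 12 arrays: the mean of 13 of them lay between 14.07 and 14.16. The library of pig 3 at 20 min stood apart in matrix genes, with a mean over 12 fibroblast and matrix markers of 9.67, against 8.76 to 9.32 on the other 11 arrays. Its mean over 15 genes of haemostasis of the vessel wall was 6.55, against 6.04 to 6.25 on the others.

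No endothelial member passed the test at any time after death. In the limma fit 0 of 17 probe sets were called at 2 h against 20 min, where 0% of all probe sets were called, and 0 of 17 at 6 h, where 0% were called. At 24 h 0 of 17 were called, where 0.00417% (1 probe set) were called. At an unadjusted p under 0.05 there were 2, 2 and 1 of the 17 at 2 h, 6 h and 24 h, against 7.95%, 8.83% and 13.1% of all probe sets. These 3 comparisons share the 20 min arrays and are given side by side for that reason. The smallest adjusted p among the members was 0.587 at 2 h, 0.498 at 6 h and 0.276 at 24 h, in each case for ENG. In whole muscle, fewer endothelial cells in a portion and less RNA per endothelial cell cannot be told apart.

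The endothelial probe sets were instead read at levels close to those of 20 min, within limits that can be given. The 95% confidence interval of the change lay within 1.5-fold in either direction for 16 of 17 probe sets at 2 h, 15 at 6 h and 15 at 24 h. Over all probe sets the shares were 95%, 94.7% and 93.3%. Every one of the 17 intervals lay within 2-fold at each of the 3 times, as did 99.6%, 99.5% and 99.3% of all. Of the 17, 11 lie above the dimmest 40% of probe sets. Whether the others read a transcript or background was not tested, so their intervals say little about RNA. The median change over the 17 probe sets was 0.10 at 2 h, 0.08 at 6 h and 0.05 at 24 h. The 24 h median had no stable sign: leaving out pig 2 gave -0.05, and leaving out its 24 h array alone gave -0.04. The mean was higher than at 20 min in 13, 16 and 9 of 17, against 50%, 48.2% and 52% of all probe sets, and all 3 pigs were higher in 4, 5 and 3 of 17, against 13.8%, 15.4% and 17.8%. Medians over all probe sets were within 0.01 of 0 at each time. For the brightest probe set of each of the 8 genes, the medians were 0.04, 0.07 and -0.02, and the mean was higher in 5, 8 and 3 of 8.

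**Figure D1:**
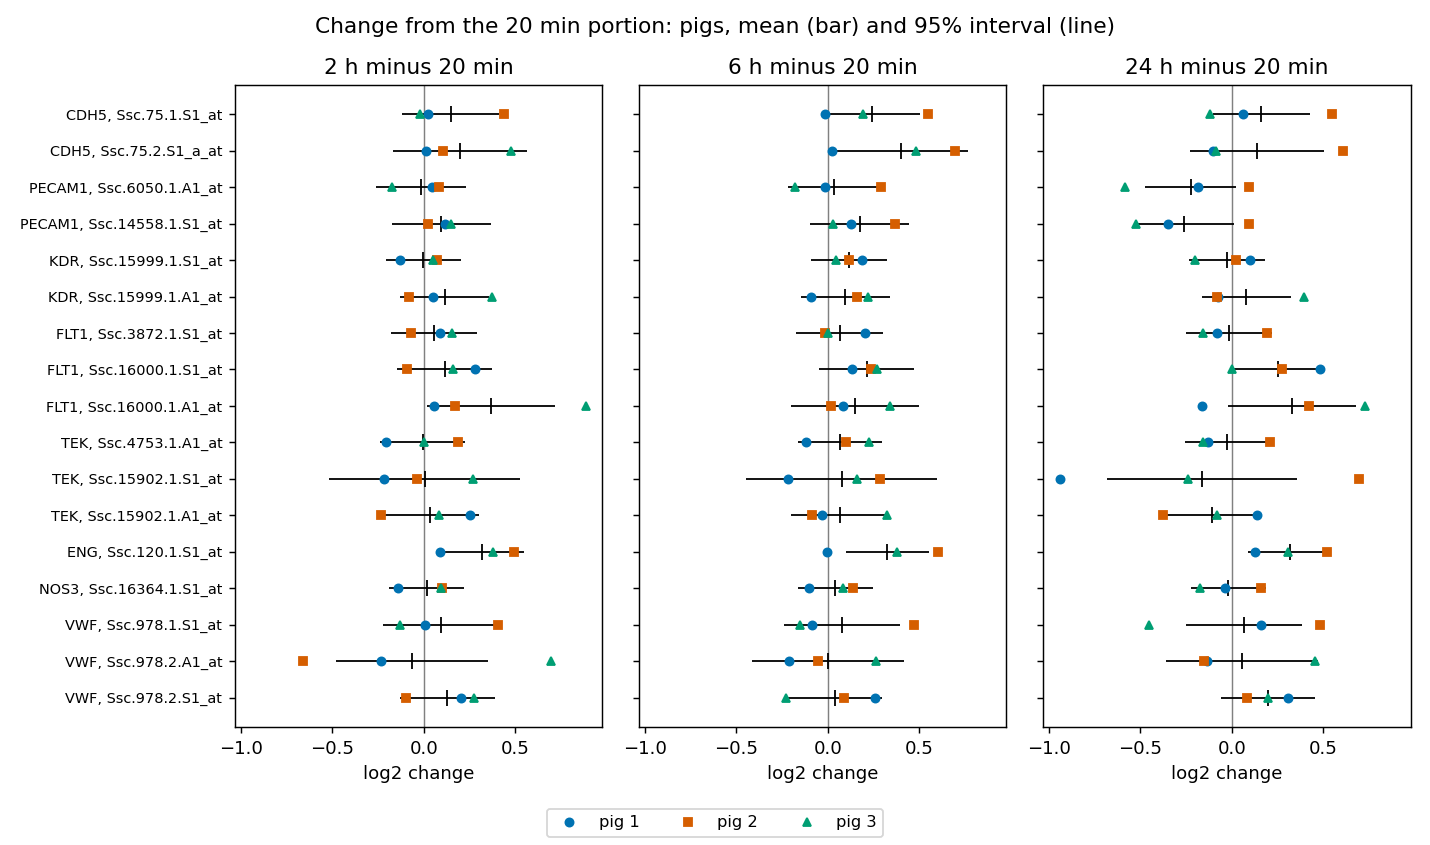
Change in log2 level from the 20 min portion of the same pig at 2 h, 6 h and 24 h for the 17 probe sets, with each pig as a point, the mean over the 3 pigs as a short bar and the 95% interval of the limma fit as a line. No probe set passed the test in any panel, and at 24 h the points of pig 2 (squares) lie to the right of 0 for 14 probe sets.

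The junction genes come first. For CDH5, the adhesion molecule that holds endothelial cells to each other, the brighter probe set (Ssc.75.1.S1_at) read 8.50, 8.52, 8.48 and 8.56 in pig 1, in the order of time (20 min, 2 h, 6 h, 24 h). In pig 2 it read 8.59, 9.02, 9.14 and 9.13. For pig 3 the levels were 8.66, 8.64, 8.86 and 8.55. Pig 1 stayed nearly level throughout, pig 2 was higher at every later time than at 20 min, and the groups of arrays overlapped at all times. The change from 20 min was 0.15 ± 0.25 at 2 h, 0.24 ± 0.29 at 6 h and 0.16 ± 0.34 at 24 h, with limma adjusted p of 0.754, 0.588 and 0.578. The other CDH5 probe set (Ssc.75.2.S1_a_at) had its largest mean change at 6 h, which was 0.40 ± 0.34 and was made of 0.02, 0.70 and 0.48 in pigs 1, 2 and 3. It did not pass there (unadjusted p = 0.035, adjusted p = 0.543 by limma), and by 24 h only pig 2 was above its 20 min level.

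PECAM1, another adhesion molecule of the endothelial border, was lowest at 24 h in 2 of the 3 pigs. Its brighter probe set (Ssc.6050.1.A1_at) read 9.24, 9.28, 9.22 and 9.05 in pig 1 at the 4 times in order. It read 9.19, 9.28, 9.48 and 9.29 in pig 2 and 9.57, 9.40, 9.39 and 8.98 in pig 3. The 24 h portion was the lowest of the 4 in pigs 1 and 3, and the highest level of pig 2 was at 6 h.

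The other PECAM1 probe set (Ssc.14558.1.S1_at) read 8.20, 8.32, 8.33 and 7.85 for pig 1, 8.36, 8.38, 8.73 and 8.45 for pig 2, and 8.43, 8.58, 8.46 and 7.90 for pig 3. Here too the 24 h portion was the lowest in pigs 1 and 3. From 6 h to 24 h both probe sets were lower in 3 of 3 pigs, by a change of -0.26 ± 0.13 in the brighter one and -0.43 ± 0.14 in the other, which is 1.35-fold lower. Neither passed, with limma adjusted p of 0.617 and 0.572 (unadjusted p = 0.0431 and 0.00452). In that comparison 0 of 17 members and 0% of all probe sets were called, and 2 of 17 members had an unadjusted p under 0.05, against 8.08% of all. Lower levels in all 3 pigs were seen in 4 of the 17 probe sets, against 15.7% of all.

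Macrophage and leukocyte markers, too, had lower means at 24 h than at 6 h. The mean over 18 such markers changed by -0.38, -0.29 and -0.45 in pigs 1, 2 and 3, and 0 of the 18 passed the limma test. At an unadjusted p under 0.05 there were 7, each lower, against 8.08% of all probe sets. Of the 18 markers, 6 were higher at 24 h than at 6 h. The range over pigs of the mean of the 18 was 5.84 to 6.16 at 6 h and 5.40 to 5.78 at 24 h. Over the same interval the mean of 18 other endothelial markers changed by 0.04, 0.08 and -0.16 in the 3 pigs. The gap between the 3′ and 5′ control probe sets of EF1A, which grows as RNA breaks down, changed by 0.32, 0.03 and 0.26 on the log2 scale. For the Ssc-actin controls the gap went from 2.03 to 2.46, from 2.03 to 2.00 and from 2.32 to 2.28. The controls thus differed in which pigs had a wider gap. The part of leukocyte RNA and of RNA quality in the PECAM1 values was not tested.

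Among the growth factor receptors, KDR, the main signalling receptor for VEGFA, was read at the dim end of the array. Its probe set Ssc.15999.1.S1_at read 3.98, 3.85, 4.17 and 4.08 for pig 1, 4.16, 4.24, 4.28 and 4.19 for pig 2, and 4.06, 4.11, 4.10 and 3.86 for pig 3. The times overlapped, and the other KDR probe set ranged from 3.34 to 3.82 over the 12 arrays. Both KDR probe sets, 2 of the 3 for FLT1 and 2 of the 3 for TEK fall among the dimmest 40% of probe sets, and 11 of the 17 members lie above that limit. Among the control probe sets of the array, the 17 tag controls lay between 3.13 and 4.53. The means of the KDR probe sets over the 12 arrays, 4.09 and 3.62, fell in that range. So did those of FLT1 on Ssc.16000.1.A1_at (3.97) and TEK on Ssc.15902.1.A1_at (3.56). The dim probe sets Ssc.15902.1.S1_at of TEK (4.53) and Ssc.16000.1.S1_at of FLT1 (5.08) were at its upper end or above. The deposited table holds no detection calls, so whether the dim probe sets read a transcript or background was not tested.

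FLT1, a VEGF receptor that also acts as a decoy for its ligand, had its brightest probe set (Ssc.3872.1.S1_at) at 5.46, 5.55, 5.66 and 5.38 in pig 1. It was at 5.53, 5.46, 5.52 and 5.73 in pig 2 and at 5.43, 5.59, 5.44 and 5.28 in pig 3. The pigs lay on both sides of their 20 min levels at 24 h, with a change of -0.02 ± 0.18. The probe set Ssc.16000.1.S1_at lay between 4.86 and 5.34 and was higher in 3 of 3 pigs at 6 h, by 0.21 ± 0.07, and at 24 h, by 0.25 ± 0.24. Neither passed, and the 24 h adjusted p by limma was 0.390.

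The dim FLT1 probe set Ssc.16000.1.A1_at read 3.93, 3.98, 4.01 and 3.77 for pig 1, 3.95, 4.11, 3.96 and 4.36 for pig 2, and 3.39, 4.27, 3.73 and 4.12 for pig 3. Its 3 arrays at 2 h all lay above its 3 arrays at 20 min, as for 4.2% of all probe sets, and it was the only member of which this held at 2 h. The change of 0.37 ± 0.45 did not pass (limma adjusted p = 0.614) and was 0.88 in pig 3, whose 20 min array was the lowest of the 12. Without that array the 2 h change was 0.18 and the 6 h change went from 0.15 to -0.04. Without pig 3 the 2 h change was 0.11.

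TEK, the receptor for the angiopoietins, held nearly level over time and differed between pigs on its brightest probe set. Its brightest probe set (Ssc.4753.1.A1_at) read 7.73, 7.53, 7.62 and 7.60 for pig 1, 7.93, 8.12, 8.03 and 8.14 for pig 2, and 7.95, 7.95, 8.17 and 7.79 for pig 3. Every array of pig 1 was below every array of pigs 2 and 3. Of the sum of squares over its 12 arrays, 77.5% lay between pigs and 2.75% between times. The changes from 20 min had a mean of -0.03 ± 0.21 at 24 h, with a 95% interval of -0.26 to 0.20. The dim TEK probe set Ssc.15902.1.S1_at ranged from 3.83 to 5.05, and its 24 h changes were -0.94, 0.70 and -0.24 in pigs 1, 2 and 3. The other dim one, Ssc.15902.1.A1_at, ranged from 3.33 to 3.87. It changed by -0.14 ± 0.02 from 2 h to 24 h, higher in 0 of 3 pigs, and did not pass (limma adjusted p = 0.949). Neither dim probe set passed the limma F test over pigs (adjusted p = 0.771 and 0.232).

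ENG, a co-receptor for BMP ligands, had the smallest p of the members at each time against 20 min. Its single probe set (Ssc.120.1.S1_at) read 7.38, 7.47, 7.37 and 7.50 for pig 1, 7.54, 8.03, 8.15 and 8.06 for pig 2, and 7.20, 7.58, 7.58 and 7.51 for pig 3. In pigs 2 and 3 all later portions were above the 20 min portion, and in pig 1 the 4 portions were close together. Because of the distance between pigs, the times overlapped. The change was 0.32 ± 0.21 at 2 h, 0.33 ± 0.31 at 6 h and 0.32 ± 0.20 at 24 h, the last being 1.25-fold, and it was higher in 3 of 3 pigs at 2 h and 24 h and in 2 of 3 at 6 h. None of these passed, with limma adjusted p of 0.587, 0.498 and 0.276 (unadjusted p = 0.00998, 0.00899 and 0.0106).

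A test over all 4 times at once gave the same outcome. By the limma F test over time 0 of 17 members and 0.00417% of all probe sets were called, and 2 of 17 members had an unadjusted p under 0.05, against 8.22% of all. In the limma fit these were ENG (adjusted p = 0.573) and the PECAM1 probe set Ssc.14558.1.S1_at (adjusted p = 0.573). In an exact permutation of the times within each pig, with 13824 reassignments and a smallest possible p of 0.00174, ENG had p = 0.125 and this PECAM1 probe set had p = 0.141. In 2 further comparisons, 6 h against 2 h and 24 h against 2 h, 0 of 17 members were called by limma, as were 0% of all probe sets in each. At an unadjusted p under 0.05 there were 0 and 1 of the 17, against 2.26% and 5.23%.

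NOS3, the synthase that makes nitric oxide in endothelium, read 6.31, 6.17, 6.20 and 6.27 in pig 1 on its single probe set (Ssc.16364.1.S1_at). It read 6.32, 6.42, 6.46 and 6.48 in pig 2 and 6.32, 6.41, 6.40 and 6.14 in pig 3. The 3 pigs were nearly the same at 20 min, pig 1 lay below the others at 2 h and 6 h, and pig 3 was the lowest at 24 h. The 24 h change was -0.02 ± 0.17, with a 95% interval of -0.22 to 0.19.

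VWF, the clotting glycoprotein stored in endothelial granules, gave its brightest probe set (Ssc.978.1.S1_at) at 7.85, 7.86, 7.77 and 8.01 in pig 1. It read 7.89, 8.30, 8.36 and 8.38 in pig 2 and 8.24, 8.11, 8.09 and 7.79 in pig 3. Pig 2 was higher after 20 min while pig 3 was lower, and the 24 h changes were 0.16, 0.48 and -0.45. Their mean was 0.06 ± 0.47. The mean over 6 platelet markers changed by -0.20, 0.05 and -0.25 in the same pigs at 24 h, and lay between 4.95 and 5.23 on all 12 arrays. Of the 6, 0 were called by limma and 2 had an unadjusted p under 0.05, against 13.1% of all probe sets. The part of platelet RNA in the VWF values was not tested. The other VWF probe sets, between 4.82 and 6.04, did not follow the brightest one, with correlations of -0.35 and -0.06 with it within pigs over the 12 arrays.

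**Figure D2:**
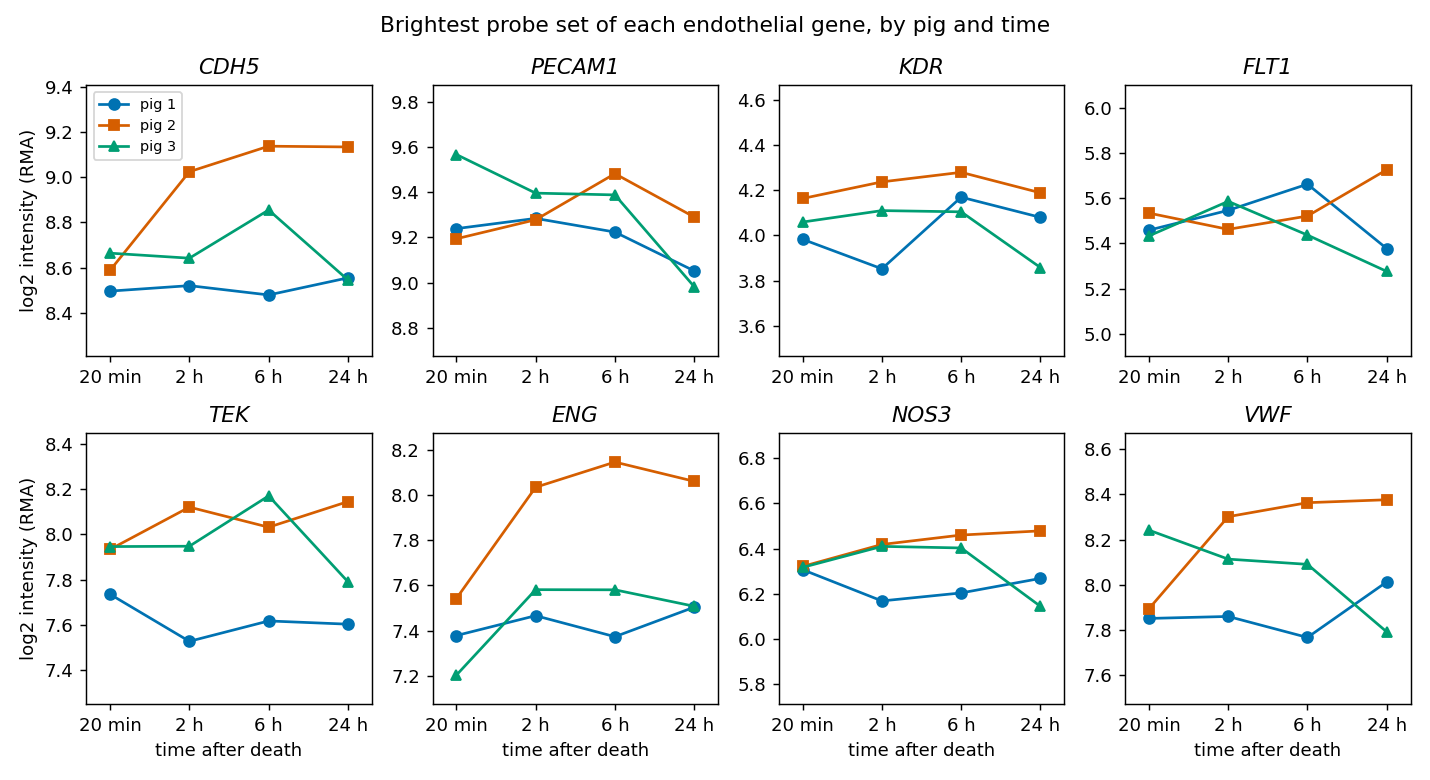
Deposited log2 level of the brightest probe set of each of the 8 genes against time after death (times evenly spaced, not to scale), with each pig as a line of points. The arrays of pig 2 lie highest at 24 h in all 8 panels, and NOS3 shows the 3 pigs together at 20 min and all apart at 24 h.

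The spread of the members over the arrays was split into shares between pigs and between times. The median share of the sum of squares was 35.3% between pigs and 14.6% between times over the 17 probe sets, against 31.8% and 21.0% over all probe sets. The share between pigs was the larger in 11 of 17, against 59.1% of all, so the 17 probe sets were near the background here. The brightest probe sets of the 8 genes lay further from it. Their median share was 47.955% between pigs and 10.97% between times, and the share between pigs was the larger in 7 of 8.

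**Figure D3:**
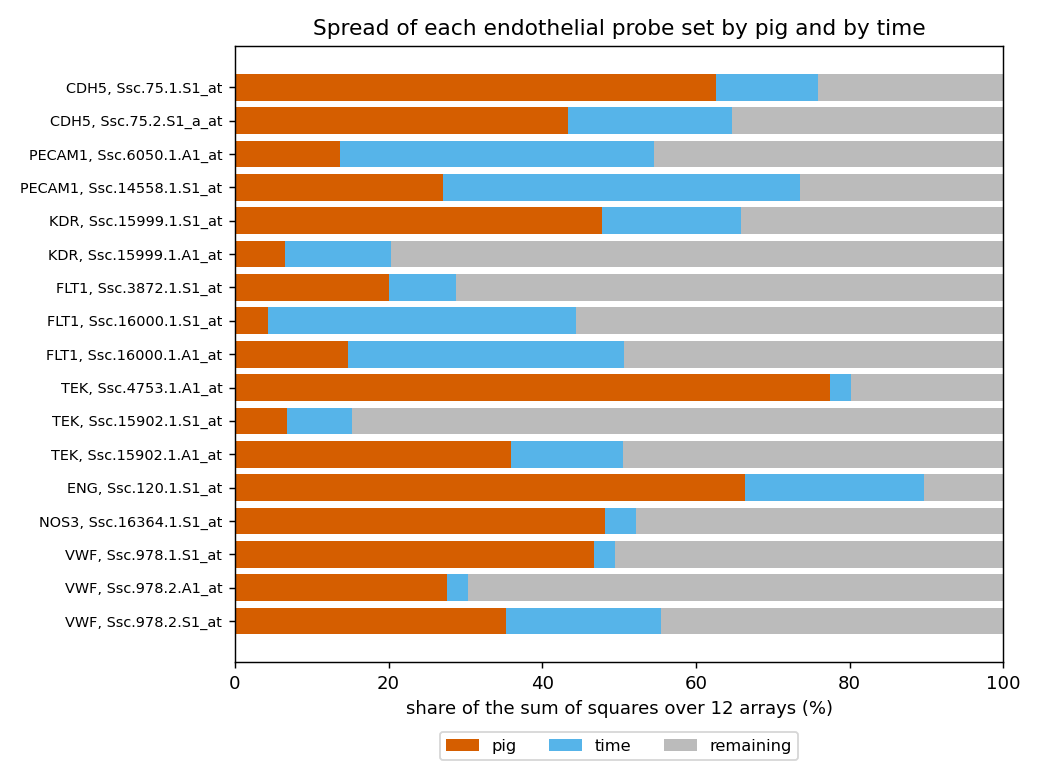
Share of the sum of squares over the 12 arrays (%) that lies between pigs, between times and in the remainder, for each of the 17 probe sets as a stacked bar. The share between pigs is largest for TEK on Ssc.4753.1.A1_at, at 77.5%, and the share between times is largest for PECAM1 on Ssc.14558.1.S1_at, at 46.6%.

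By the limma F test over pigs, with time in the fit, 3 of 17 probe sets passed, against 19.9% of all probe sets, so their share was close to the background. They were ENG (adjusted p = 0.00308), TEK on Ssc.4753.1.A1_at (adjusted p = 0.0117) and CDH5 on Ssc.75.1.S1_at (adjusted p = 0.0221). ENG had means over the 4 portions of 7.43 ± 0.06 in pig 1, 7.95 ± 0.27 in pig 2 and 7.47 ± 0.18 in pig 3 (SD over 4 portions). For TEK they were 7.62 ± 0.09, 8.06 ± 0.10 and 7.96 ± 0.16. For CDH5 they were 8.51 ± 0.03, 8.97 ± 0.26 and 8.68 ± 0.13. Pig 2 was therefore the high animal for ENG and CDH5, while pig 1 was the low animal for TEK.

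The portions of a pig are repeated samples of a single animal, so these p-values compare these 3 animals only. Without pig 2 the calls of ENG (adjusted p = 0.837) and CDH5 (adjusted p = 0.287) were lost and TEK kept its call (0.0448), and without pig 1 only ENG passed (0.0118). Without pig 3 there were 5 of 17 calls, the added probe sets being CDH5 on Ssc.75.2.S1_a_at (adjusted p = 0.0350) and VWF on Ssc.978.1.S1_at (adjusted p = 0.0397). The CDH5 call on Ssc.75.1.S1_at was also lost without any single later array of pig 2. Over the 17 alternatives, the adjusted p ran from 0.00133 to 0.837 for ENG, 0.00440 to 0.599 for TEK and 0.00412 to 0.287 for CDH5.

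Pig 2 had the highest mean of the 3 pigs in 15 of the 17 probe sets, pig 3 in 2 and pig 1 in 0, where the shares of all probe sets were 37.4%, 27.7% and 34.9%. Within pig 2, the 20 min array was the lowest of its 4 in 10 of 17 probe sets, against 29.5% of all. The same held for 2 of 17 in pig 1 and 5 of 17 in pig 3, against 23% and 31.1%.

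The pigs lay closer together at 20 min than later in many members. The range over the 3 pigs was smaller at 20 min than at each later time in 9 of 17 probe sets, among them 6 of the 8 brightest, against 21.9% of all probe sets. For the 8 brightest the median range was 0.20 at 20 min, then 0.41, 0.41 and 0.50 at the later times. For all 17 it was 0.27, then 0.29, 0.40 and 0.45, with little widening at 2 h. Over all probe sets it was 0.28, 0.26, 0.26 and 0.25, with no such widening. With a single array for each pig at each time, a difference between pigs in the course over time could not be tested.

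At 24 h the animals lay on different sides of their 20 min levels. Of the 8 brightest probe sets, 4 were above their 20 min level in pig 1, all 8 in pig 2 and only ENG in pig 3. That of KDR, counted here, lay within the range of the tag controls. From 6 h to 24 h all 8 were lower in pig 3, and 4 were lower in each of pigs 1 and 2. The mean 24 h change over the 8 was 0.00, 0.28 and -0.19 in pigs 1, 2 and 3. Their mean level in these pigs was 7.06, 7.15 and 7.18 at 20 min, and 7.06, 7.42 and 6.99 at 24 h. In the same portions the EF1A gap between 3′ and 5′ probe sets changed by 0.38, -0.01 and 0.47. The same gap for the Ssc-actin controls went from 2.37 to 2.46, from 2.23 to 2.00 and from 2.33 to 2.28, so the controls differed in which pigs had a wider gap. At 2 h the EF1A gap changed by 0.08, 0.49 and 0.26, and the mean of the 8 members by -0.03, 0.21 and 0.04, with pig 2 the highest in both. The part of RNA quality in the result was not tested.

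The brightest probe sets of the 8 genes tended to be high and low in the same portions of a pig. After subtracting each pig's mean, all 28 pairs correlated above 0 over the 12 arrays, with a median r of 0.44. These include the pairs of KDR, whose level lay within the range of the tag controls. The highest were VWF with CDH5 and TEK with NOS3, both at 0.81, and CDH5 with ENG at 0.79. The lowest was PECAM1 with ENG at 0.01. The points share the same 12 arrays and 3 animals, and against all probe sets the 8 had median r between -0.04 and 0.04. The 12 pairs of probe sets of the same gene had a median r of 0.12, from -0.35 for VWF to 0.88 for the PECAM1 pair.

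By the same measure, some other genes ran closer to a member than any member did. ENG was followed by TPM2 (r = 0.97), EPHX1 and ETFB, CDH5 by RBM3 (0.92), ADD1 and PAM, and PECAM1 by UFD1 (0.95), EMP3 and FABP4. VWF was followed by SLPI (0.95), ENPEP and SH2D1A, NOS3 by DTX3L (0.94), ITM2A and PSME1, and TEK by IFIT3 (0.89), MRPL40 and PPP3CC. FLT1 was followed by OGFOD1 (0.94), UTP18 and CSRP1, and KDR by RPL36AL (0.91), PRPS2 and FOSL1. These are the 3 highest of all genes with a single symbol over the same 12 arrays, and so high by selection.

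The ligands and partners of the members were followed through lists of genes, each read by its brightest probe set, and none of these genes passed the limma test at 2 h, 6 h or 24 h. At 24 h, 13.1% of all probe sets had an unadjusted p under 0.05 by limma, and 1151 of 6765 with 1 probe set per gene. The counts at an unadjusted p in each list are to be read beside these shares. For the VEGF and angiopoietin ligands and co-receptors, 7 of 15 listed genes were on the array, with a median 24 h change of 0.07 against 0.01 over all probe sets and 2 of 7 at an unadjusted p under 0.05. VEGFA, the ligand of KDR and FLT1, was at -0.01 ± 0.29, and VEGFB, a ligand of FLT1, at 0.35 ± 0.45. ANGPT2, a ligand of TEK, was at -0.44 ± 0.58 (adjusted p = 0.305). ANGPTL4, an angiopoietin-like protein that inhibits lipoprotein lipase, was at 0.07 ± 0.24. TIE1, the partner receptor of TEK, was at 0.16 ± 0.33. Neither the ligands nor the receptors of this system therefore passed in any direction.

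The list of endoglin and BMP signalling held 9 of 18 genes, with a 24 h median of -0.15 and 1 of 9 at an unadjusted p under 0.05. SMAD1, which carries the BMP signal to the nucleus, was at -0.58 ± 0.26 (adjusted p = 0.193) while its co-receptor gene ENG was at 0.32 ± 0.20. SMAD4, the shared partner of the SMAD factors, was at -0.19 ± 0.10. The BMP target genes ID1 and ID3 were at -0.16 ± 0.48 and -0.27 ± 0.42, each with an SD larger than its mean. In pig 2 both were higher than at 20 min, by 0.38 and 0.16, and in pigs 1 and 3 both were lower.

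Of the partners and targets of the nitric oxide synthase, 11 of 20 were on the array, with a 24 h median of -0.01 and 2 of 11 at an unadjusted p under 0.05. The caveolins, coat proteins of the membrane pits that hold NOS3, were at 0.09 ± 0.12 for CAV1 and -0.21 ± 0.46 for CAV2. The chaperones HSP90AA1 and HSP90AB1, which bind NOS3, were at -0.11 ± 0.09 and -0.14 ± 0.04. HSP90AB1 was lower in 3 of 3 pigs, while for CAV2 pig 2 was higher and the others lower than at 20 min.

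The junction partners held 13 of 17 genes, with a 24 h median of 0.01 and 7 of 13 means higher. At an unadjusted p under 0.05 there were 3 of 13, each lower. The lowest was GJA1, the gap junction protein connexin 43, which is not restricted to endothelium. It was at -0.74 ± 0.33 at 2 h, -0.73 ± 0.61 at 6 h and -0.90 ± 0.20 at 24 h, where the pigs were at -0.83, -1.12 and -0.74 (limma adjusted p = 0.193). CTNNB1, the catenin bound by VE-cadherin, was at -0.07 ± 0.09, and VCL, which links junctions to actin, at -0.20 ± 0.07. CD99, a border protein that leukocytes pass, was at -0.10 ± 0.25.

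For haemostasis of the vessel wall, 15 of 19 genes were on the array, with a 24 h median of -0.05 and 6 of 15 means higher. At an unadjusted p under 0.05 there were 4 of 15, each lower. VCAM1, an adhesion molecule for leukocytes, was at -0.40 ± 0.37, and the anticoagulant receptors THBD and PROCR were at 0.18 ± 0.38 and -0.08 ± 0.75. ACE, the angiotensin converting enzyme of the endothelial surface, was at 0.12 ± 0.29. Of the endothelial transcription factors, 13 of 25 were on the array, with a 24 h median of -0.08 and 1 of 13 at an unadjusted p under 0.05. ETS2 was at -0.38 ± 0.59, KLF4 at -0.40 ± 0.54, FOXO1 at -0.13 ± 0.35 and NR2F2 at -0.11 ± 0.17.

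A list of other endothelial markers, with 18 of 29 genes on the array, had a 24 h median of 0.08, with 11 of 18 means higher and 4 of 18 at an unadjusted p under 0.05, each higher. AQP1, a water channel of capillary endothelium, was at 0.31 ± 0.38 at 2 h, 0.37 ± 0.27 at 6 h and 0.44 ± 0.24 at 24 h (limma adjusted p = 0.220 at 24 h). FABP4, a fatty acid carrier of capillaries and fat cells, was at -0.37 ± 0.83, SPARCL1 at 0.08 ± 0.14 and PALMD at -0.05 ± 0.25. The mean 24 h change of the list in pigs 1, 2 and 3 was 0.09, 0.25 and -0.21. For the 8 members it was 0.00, 0.28 and -0.19, so pig 2 was the highest and pig 3 the lowest of the animals in both lists.

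The order of pigs at 24 h was also seen in other gene lists. Of 15 such lists, 7 had pig 2 highest and pig 3 lowest. The changes of pig 3 in all lists are taken from its 20 min array, which stood apart in matrix genes. Of the 7, the other endothelial marker, junction, haemostasis and transcription factor lists hold endothelial genes or their partners. Outside endothelium, the platelet list and the macrophage and leukocyte list had this order. Markers of smooth muscle and pericytes, which wrap the vessels, had this order too. The mean over 8 of them changed by 0.02, 0.26 and -0.15 at 24 h, with 0 of 8 called by limma and 2 of 8 at an unadjusted p under 0.05. The list was split at 24 h, with a median change of -0.0009 and 4 of 8 means higher. Their mean log2 level lay between 8.70 and 8.91 at 20 min and between 8.72 and 9.07 at 24 h. The 3 brightest genes of the list were ACTA2 and SMTN, which encode proteins of contractile smooth muscle, at -0.10 ± 0.42 and 0.39 ± 0.21, and RGS5, a pericyte gene, at 0.31 ± 0.21. RGS5 and SMTN were higher in 3 of 3 pigs, with limma adjusted p of 0.238 and 0.198. Fibroblast and matrix markers changed by 0.14, -0.01 and -0.51, macrophage and leukocyte markers by -0.19, -0.05 and -0.79, and erythroid markers by -0.09, 0.16 and 0.06. Muscle fibre markers changed by 0.01, 0.05 and 0.05. The part of differing vessel or connective tissue content between portions in the endothelial values was not tested.

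**Figure D4:**
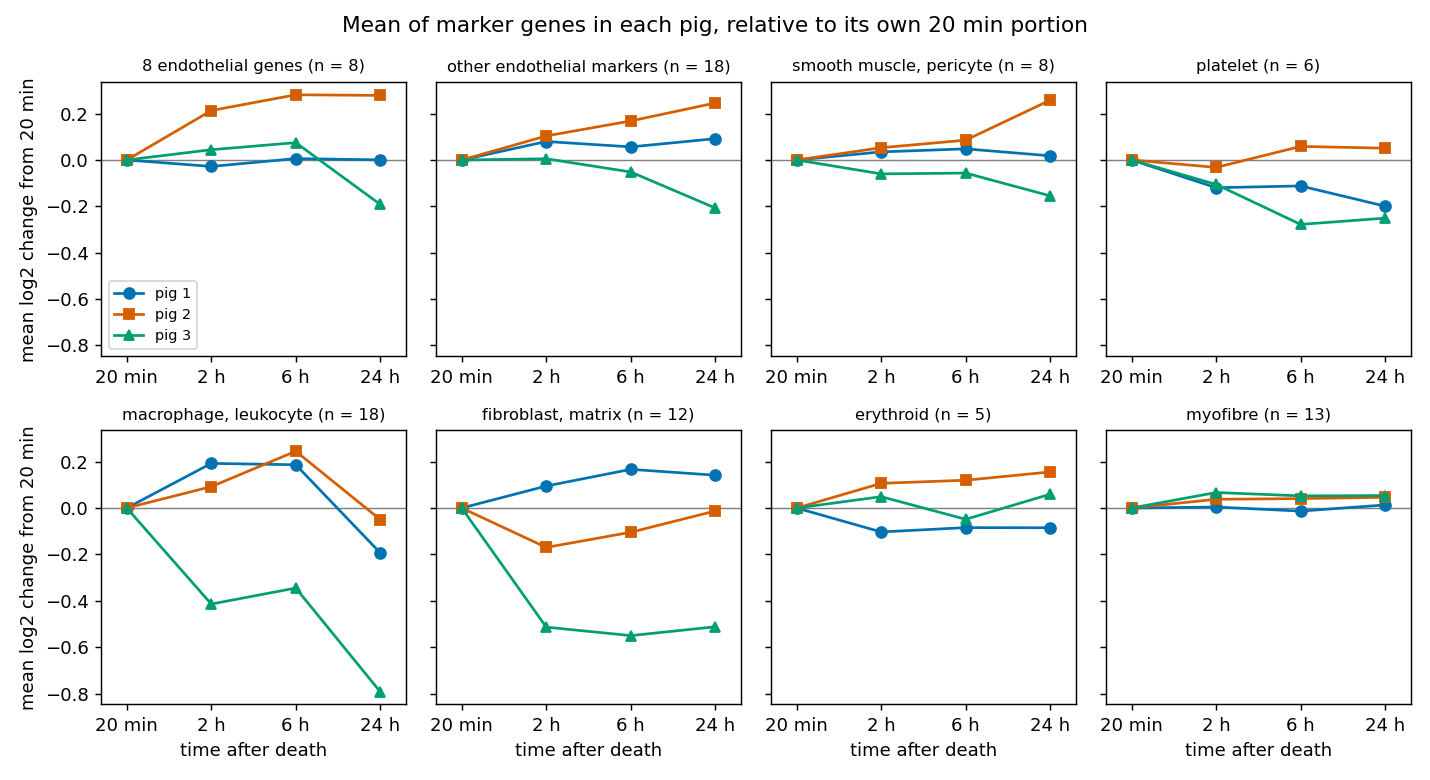
Mean change in log2 level from 20 min to each later time, for each pig, of the 8 endothelial genes and of marker lists for other cell types. At 24 h pig 2 is highest and pig 3 lowest for the endothelial genes (0.28 and -0.19), and this order also holds for the lists of other endothelial, smooth muscle and pericyte, platelet, and macrophage and leukocyte markers.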

How the data were processed

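Total RNA was hybridised to a single-colour porcine Affymetrix array, 1 array for each of 3 pigs at 4 times. The deposited values are log2 levels. Per the submitters' processing notes, the authors used affy and RMA, of versions not stated in the labels. RMA sets all arrays to a common distribution, so a shift shared by all transcripts cannot be seen, and the number of arrays limits precision. After removal of 124 controls from the 24123 probe sets, 23999 were tested. The platform annotation, dated 2016, gave 10069 of the tested probe sets a single symbol, 198 several and 13732 none. Column titles gave each array's time and pig.

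All 12 arrays entered a single limma fit (limma 3.58.1, R 4.3.3) with time and pig as fixed terms. P-values were two-sided and adjusted over all probe sets. The same muscle of the same pig was sampled at each time per the series' design text. After subtracting time means, arrays of the same pig correlated at 0.409 to 0.656 and of different pigs at -0.634 to -0.0386. With so few pigs, the subtraction itself makes correlations between different pigs negative, so the latter range says nothing about the pairing. The pigs are separate animals. The procedure was tested on simulated data.

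The rule for named genes was every member probe set; up to 4 genes of each pathway list and of the other endothelial list, by size among those that passed and then by mean level; the 3 genes closest to each member's brightest probe set; and up to 3 of the brightest genes of each other marker list. The receptor TIE1 was added after its values were seen. Members and lists were chosen with earlier results of these data known. Alternatives were no block, a random block (statmod 1.5.0), a filter on the dimmest 40%, other scalings, priors and weights, 1 probe set per gene, only the arrays of the 2 times compared, and left-out pigs or arrays; leaving out single arrays of pig 2 was added after seeing the data. Sequences and coordinates are not used here.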

Additional observations from a re-analysis of the deposited data

How the results depend on the processing

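Under every alternative run, 0 of the members tested passed in each of the 6 comparisons between times and in the test over all times, and no member value reversed a call. The median change of the members at 2 h was 0.0367 with 1 probe set per gene, against 0.0960 over 17, and 0.0112 to 0.189 when a pig or array was left out, the lowest without the 2 h array of pig 3 and the highest without the 2 h array of pig 2. At 24 h that median, 0.05, ran from -0.05 without pig 2 to 0.14 without pig 1, and was -0.0396 and -0.00169 without the 24 h and the 20 min array of pig 2 and -0.0167 with 1 probe set per gene. Over all probe sets, the fit with array weights called 1 at 6 h, against 0. At 24 h against 20 min, 1 was called with the pig as a block, and 0 with no replicate block, with the pig as a random block or with only the arrays of the 2 times; leaving out a pig or an array gave 0 to 5. With only the arrays of the 2 times, 24 h against 2 h gave 1 and 24 h against 6 h gave 4, against 0 in each, and leaving out a pig or an array gave 0 to 5 and 0 to 9, the highest without the 20 min array of pig 3. At 2 h left-out pigs or arrays gave 0 to 1. The test over all times called 1, and 0 with no replicate block, without the dimmest 40% or with cyclic loess, and 0 to 3 with a pig or array left out. Between pigs, 4770 probe sets were called, 2138 of 6765 with 1 probe set per gene, and 1872 to 4707 with a pig or array left out; members called went from 1 to 5, against 3. The cause of these shifts was not tested. The pig block changed no member's call. With 3 animals, a change the size of that of ENG was within what the fit could not call, and dim probe sets give little information on KDR.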
